A study of Homo sapiens with 4 samples.

Results

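The genes described here are the clustered HOX genes, the members of the HOXA, HOXB, HOXC and HOXD clusters. They were taken as all non-control probes of the array whose gene name was HOXA, HOXB, HOXC or HOXD followed by digits only, which gave 52 probes (62 spots) of 50238 probes and 39 genes, with 11 in the HOXA cluster on chromosome 7, 10 in the HOXB cluster on chromosome 17, 9 in the HOXC cluster on chromosome 12 and 9 in the HOXD cluster on chromosome 2. A549 is a cell line derived from a human lung carcinoma with epithelial features. The cells were left untreated (control, 2 samples) or were given 15 µM embelin, a benzoquinone from the fruit of Embelia ribes, for 4 h (2 samples), after the medium of both groups had been changed to one with less serum. Total RNA of each sample was labelled with Cy3 and hybridised to 1 array of a single Agilent slide, and the design text states that the 4 h time point was chosen to find pathways behind the early apoptosis caused by embelin. The labels name no vehicle for the controls, and nothing in them says that replicates were separate cultures, so the p-values measure the spread between these samples, which may be technical.

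HOX proteins are transcription factors that bind DNA through a homeodomain, and they give cells their position along the body axis. The genes lie in 4 clusters in an order that follows their expression in the embryo, from the anterior genes with low numbers to the posterior genes with high numbers, and genes with the same number in different clusters are paralogues. Polycomb complexes keep the clusters silent, trithorax complexes keep them active, retinoic acid induces the anterior genes, and PBX and MEIS proteins of the TALE class bind DNA together with HOX proteins. In the lung, HOXA5 and HOXB5 are known for their roles in development of the airways.

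Signals are given as log2 intensities after the 75th percentile of each array was set to the same level, and a probe was kept when 1 or both groups had it well above background, as called by the scanner software, on each of their arrays. The 4 arrays did not have the same background. The number of probes well above background was 33532 on control 1, 25265 on control 2, 25698 on embelin 1 and 33363 on embelin 2, and 26, 22, 20 and 26 HOX genes, respectively, had a probe above it. One array with the narrower detection range lies in each group. All 6 epithelial marker genes (such as KRT8, KRT18 and EPCAM) were well above background on all 4 arrays, whereas 1 of 6 fibroblast, 3 of 6 leukocyte and 0 of 6 endothelial marker genes had a kept probe. The fibroblast gene, COL1A1, had log2 signals of 6.38 and 6.27 in control and 7.56 and 7.69 in embelin, and its part in the HOX values was not tested. The probe level of one gene cannot be set against that of another, so the values are compared only between arrays.

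Of the 39 HOX genes, 23 had a kept probe and were tested. They were 7 of 11 in the HOXA cluster (HOXA2, HOXA3, HOXA4, HOXA5, HOXA7, HOXA10 and HOXA13), 9 of 10 in the HOXB cluster (HOXB2 to HOXB9 and HOXB13), 3 of 9 in the HOXC cluster (HOXC8, HOXC9 and HOXC13) and 4 of 9 in the HOXD cluster (HOXD8, HOXD9, HOXD10 and HOXD11). For 16 genes a single probe exceeded background clearly on all 4 arrays, and for 29 genes a probe did so on at least 1 array. HOXA11, HOXB1, HOXC5, HOXC6, HOXC11, HOXC12, HOXD3, HOXD4, HOXD12 and HOXD13, 10 genes in all, were not well above background on any array. HOXA6, HOXA9, HOXC4, HOXC10 and HOXD1 were above background on 1 or 2 arrays and were not kept.

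Of the 23 genes tested, 2 rose (HOXD9 and HOXD11) and 4 fell (HOXB6, HOXB13, HOXC8 and HOXC13) with embelin at a limma p adjusted by the Benjamini-Hochberg method under 0.05. These 6 genes were 26.1% of the HOX genes tested, against 1.81% of the 17649 genes tested on the arrays. Of these, HOXC8, HOXD9 and HOXD11 had 1 array that was not well above background, in the group with the lower signal, so they entered the test through the other group and their share is given as a description. When a probe had to be well above background on all 4 arrays, 16 HOX genes were tested and these 3 were not among them. In that fit 2 genes were called higher (HOXA13 and HOXD10) and 5 lower (HOXB3, HOXB5, HOXB6, HOXB13 and HOXC13), which was 43.8% of the HOX genes against 4.92% of all genes tested. At an unadjusted p under 0.05, 4 HOX genes were higher and 11 lower, which was 65.2% of them against 19.5% of all genes. Of the 23 genes tested, 7 had 1 array that was not well above background. Besides HOXC8, HOXD9 and HOXD11, these were HOXA2, HOXA10, HOXB7 and HOXD8, which entered the test through control. HOXA2, HOXA10 and HOXD8 are among the 11 lower genes. A change of at least 2-fold upward was fitted for 5 HOX genes (21.7%, against 6.66% of all genes), among them HOXB4, whose groups overlapped. A change of at least 2-fold downward was fitted for 7 (30.4%, against 5.95%). The embelin and control arrays did not overlap in 18 HOX genes, 6 higher and 12 lower, or 78.3%, against 51.8% of the genes with values on all arrays. The median log2 change was -0.72 over the HOX genes tested and -0.06 over all genes tested. None of the 6 calls was kept when any 1 of the 4 arrays was left out, with the replicate number or the background of the arrays as a block, with the methods' t-test, or without the filter on dim probes, and in each of these settings 0 genes were called over all. With an array left out, the log2 change ran from -2.99 to -2.60 in HOXC13 and from -2.61 to -2.25 in HOXB6. In HOXD9 it ran from 2.21 to 2.69. These genes were called with a small spread within each group, so a narrow range largely follows from the call. Among genes not called, the change ran from -0.35 to 0.13 in HOXA3 and from -1.50 to 3.95 in HOXB4.

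**Figure D1:**
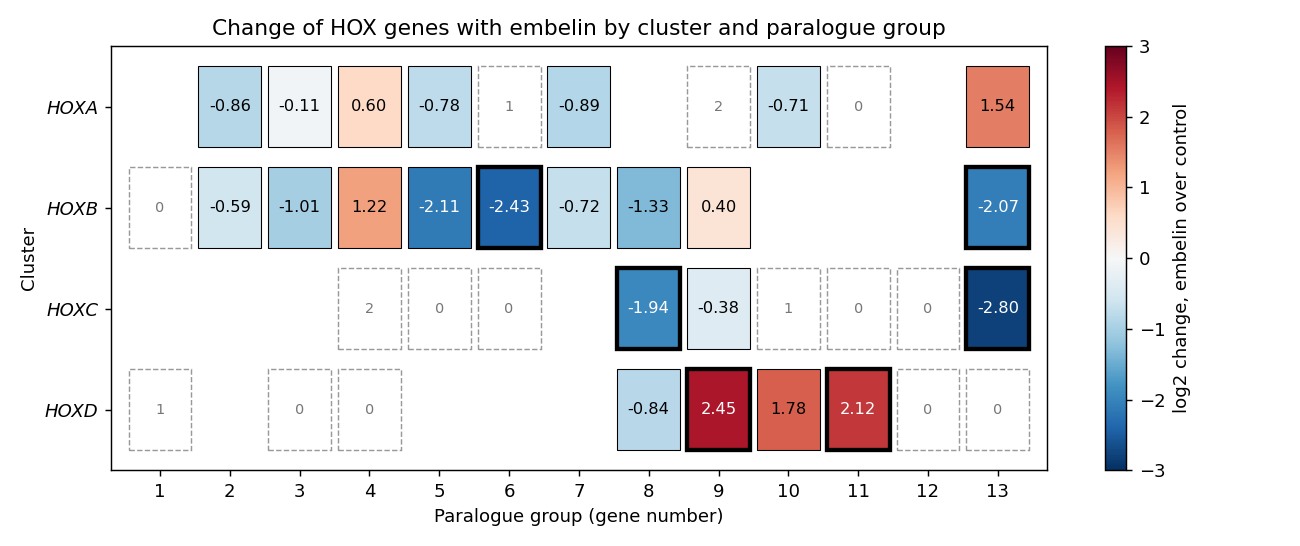
Change of the HOX genes with embelin, with the 4 clusters as rows and the paralogue group (the gene number) as columns. Filled boxes give the log2 change of the 23 genes tested, thick frames mark the 6 genes with an adjusted p under 0.05, and dashed boxes give, for genes not kept, the number of arrays on which a probe was well above background; the higher values in the HOXD row lie at HOXD9, HOXD10 and HOXD11.

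Most fitted changes were negative in the HOXA, HOXB and HOXC clusters and positive in the HOXD cluster. The median log2 change was -0.71 in the HOXA cluster (7 genes, from -0.89 to 1.54), -1.01 in the HOXB cluster (9 genes, from -2.43 to 1.22), -1.94 in the HOXC cluster (3 genes, from -2.80 to -0.38) and 1.95 in the HOXD cluster (4 genes, from -0.84 to 2.45). The order of the gene numbers divided them less clearly, with a median of -0.72 in paralogue groups 1 to 3 (4 genes), -0.86 in groups 4 to 8 (10 genes) and 0.40 in groups 9 to 13 (9 genes). These medians describe the genes and carry no test. They moved with the setting, to -0.066 in the HOXC and 0.11 in the HOXD cluster without the filter on dim probes, and to -0.70 and 1.38 with normexp background correction, and 3 of the 4 HOXD genes had 1 array that was not well above background. In the reference annotation no other protein-coding gene lies between the ends of the HOXC or of the HOXD cluster, 1 lies within the HOXA and 2 within the HOXB cluster.

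In the HOXD cluster HOXD9, HOXD10 and HOXD11 had positive log2 changes and HOXD8 a negative one. HOXD9, a posterior gene used in limb and lower spine patterning, had log2 signals of 6.05 and 6.03 in control and 8.24 and 8.73 in embelin. Both embelin arrays were above both controls, of which control 2 was not well above background, and the log2 change was 2.45 ± 0.23 (SE, 2 arrays per group, adjusted p = 0.038), or 1.65 with normexp. HOXD11, which patterns the forearm and the kidney, had signals of 5.04 and 5.39 in control and 7.13 and 7.54 in embelin. The groups again did not overlap, control 2 was not well above background, and the log2 change was 2.12 ± 0.24 (adjusted p = 0.048), or 1.16 with normexp. HOXD10, which lies between these genes on the chromosome and takes part in patterning the lumbar spinal cord and the limb, had signals of 8.44 and 7.96 in control and 9.96 and 10.00 in embelin. Its probe was well above background on every array, and the log2 change was 1.78 ± 0.23 (adjusted p = 0.0547). HOXD8, the next gene toward the anterior end, had signals of 7.15 and 6.95 in control and 6.15 and 6.27 in embelin. The HOXD8 probe was not well above background on embelin 1. The log2 change of HOXD8, -0.84 ± 0.17 (adjusted p = 0.11) or -0.38 with normexp, was opposite in sign to that of its 3 neighbours.

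The other 5 HOXD genes were not tested. HOXD1 had signals of 3.25 and 3.62 in control and 6.10 and 5.94 in embelin, and was well above background on embelin 2 alone. The signals of HOXD3, HOXD4 and HOXD12 were 1.54 to 1.77 on control 1 and 1.60 to 1.81 on embelin 2, but 3.58 to 3.73 on control 2 and 3.68 to 3.91 on embelin 1, and these genes were not well above background anywhere. HOXD13 had 3.38, 5.86, 3.80 and 3.24 on control 1, control 2, embelin 1 and embelin 2.

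The promoters of HOXD11, HOXD10 and HOXD8 are shown because they lie next to or near HOXD9 and had log2 changes of opposite sign, and that of HOXD9 is not shown here. They are the 250 bases before the annotated start, from RefSeq on GRCh38.p14, on the plus strand of chromosome 2, 5′ to 3′, with capitals marking matches on either strand to the CCAAT box, to the TATAAA box or to TGATTNAT, a HOX and PBX composite motif. HOXD11 is at chr2:176107030-176107279, HOXD10 at chr2:176116528-176116777 and HOXD8 at chr2:176129455-176129704.
HOXD11: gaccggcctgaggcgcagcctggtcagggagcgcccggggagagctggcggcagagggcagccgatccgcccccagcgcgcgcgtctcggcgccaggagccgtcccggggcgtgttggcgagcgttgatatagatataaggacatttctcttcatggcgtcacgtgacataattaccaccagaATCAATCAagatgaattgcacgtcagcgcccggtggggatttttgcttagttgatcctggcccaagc
HOXD10: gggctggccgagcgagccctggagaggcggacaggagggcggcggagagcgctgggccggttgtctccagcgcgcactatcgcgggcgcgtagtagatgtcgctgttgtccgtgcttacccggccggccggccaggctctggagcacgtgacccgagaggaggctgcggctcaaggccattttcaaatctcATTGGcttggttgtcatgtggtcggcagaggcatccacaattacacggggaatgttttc
HOXD8: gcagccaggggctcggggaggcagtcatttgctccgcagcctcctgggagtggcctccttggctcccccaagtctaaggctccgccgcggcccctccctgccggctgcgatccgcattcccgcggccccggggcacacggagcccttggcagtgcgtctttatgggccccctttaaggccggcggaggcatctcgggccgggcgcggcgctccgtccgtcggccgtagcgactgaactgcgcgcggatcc
The window of HOXD11 held 1 match to TGATTNAT, that of HOXD10 held 1 match to CCAAT, and that of HOXD8 held none of the 3 motifs. The table of promoters held 27 windows of 20 HOX genes, of which 7 belonged to starts of HOXA3 and 2 to starts of HOXA10, and 26 windows differed in sequence because HOXC4 and HOXC5 share one. Among the 20 genes, 17 had a CCAAT match in at least 1 window (85%, against 37.0% of 27305 genes), 4 had TATAAA (20%, against 13.05%) and 2 had TGATTNAT (10%, against 3.06%). Matches to different motifs did not overlap in any of these windows. A match describes the letters of the window and not a bound site.

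**Figure D2:**
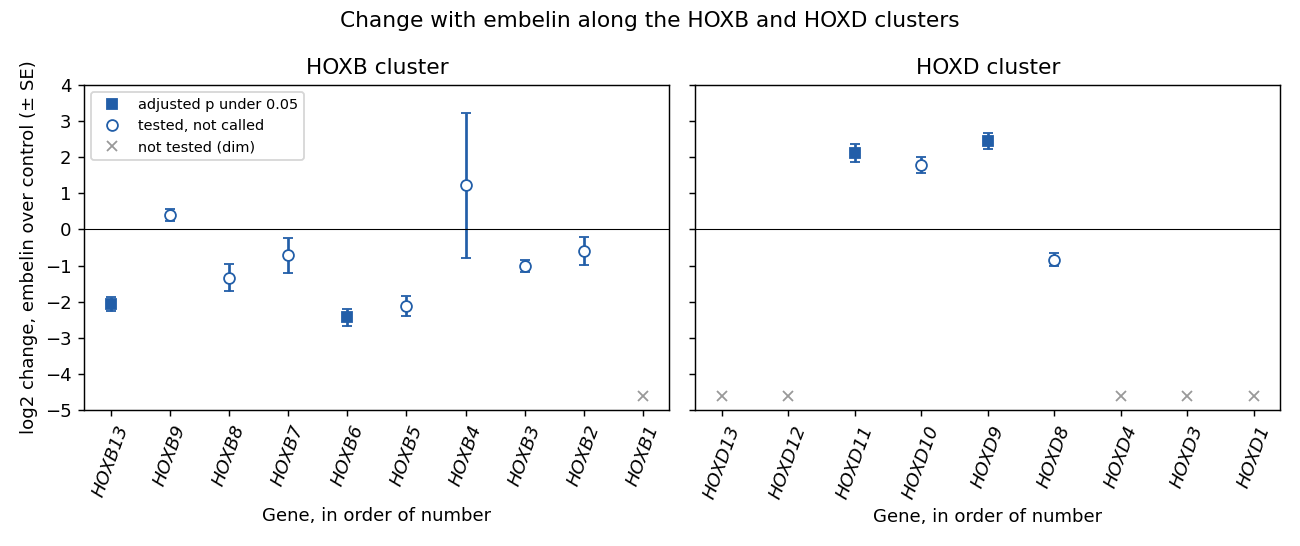
Log2 change with embelin (vertical axis, ± SE of the limma fit) along the HOXB and the HOXD cluster, with genes in order of their number. Squares are genes with an adjusted p under 0.05, open circles are other genes tested, and crosses at the foot mark genes not tested; HOXD9 to HOXD11 lie between 1.78 and 2.45 above zero, and 7 of 9 HOXB genes lie below it.

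In the HOXC cluster both genes that passed the test were lower. HOXC13, which is needed for hair and nails, had signals of 9.34 and 8.95 in control and 6.16 and 6.53 in embelin. The control arrays were both above the embelin arrays, and the log2 change of -2.80 ± 0.24 (6.95-fold lower, adjusted p = 0.0336) was the most negative among the 23 HOX genes tested. HOXC8, a gene of the thoracic region, had signals of 6.59 and 6.46 in control and 4.41 and 4.76 in embelin, of which embelin 1 was not well above background. Its log2 change was -1.94 ± 0.20 (adjusted p = 0.0449). The change was -0.70 with normexp, where the call was lost, as it was with trend and robust (adjusted p = 0.13). The other HOXC8 probe, which was not kept and which stands for the gene without the filter (-0.066), had 6.58, 5.13, 8.11 and 3.46 on control 1, control 2, embelin 1 and embelin 2, so that its arrays of the same group differed by more than those of the kept probe. HOXC9 had 12.06 and 11.83 in control and 11.62 and 11.52 in embelin, with a log2 change of -0.38 ± 0.18 (adjusted p = 0.349).

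HOXC4 showed the widest spread within a group. Its signals were 1.504 and 7.95 in control and 11.96 and 2.25 in embelin, with values above 7 on control 2 and embelin 1 only, the 2 arrays with fewer probes above background. In all, 4 HOX probes (of HOXB2, HOXB4, HOXC4 and HOXC8) differed by more than 2 on the log2 scale between arrays of 1 group with at least 1 of these well above background. In HOXB4 both embelin arrays were well above it. All 4 probes were higher on embelin 1 than on embelin 2. The part of the array background in these values was not tested. Of the other HOXC genes not kept, HOXC10 had a probe well above background on control 1 only, and HOXC5, HOXC6, HOXC11 and HOXC12 had none on any array.

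Of the 9 HOXB genes tested, 7 had negative log2 changes, and 2 of them passed the test. HOXB6, which acts in blood cell and thoracic development, had signals of 11.79 and 11.43 in control and 8.996 and 9.36 in embelin. All values of the control arrays were above those of the embelin arrays, and the log2 change was -2.43 ± 0.24 (5.39-fold lower, adjusted p = 0.0388). HOXB13, known for its role in the prostate, had signals of 10.55 and 10.87 in control and 8.70 and 8.59 in embelin. Here too the groups did not overlap, and the log2 change was -2.07 ± 0.20 (4.19-fold lower, adjusted p = 0.038). HOXB5 had 10.06 and 9.39 in control and 7.55 and 7.68 in embelin, a log2 change of -2.11 ± 0.28 that did not pass the adjusted threshold (adjusted p = 0.0569). HOXB3, an anterior gene of the hindbrain, had 10.16 and 10.19 in control and 9.11 and 9.21 in embelin, with a log2 change of -1.01 ± 0.16 (adjusted p = 0.0733). HOXB8 had 8.27 and 8.31 in control and 7.44 and 6.48 in embelin, with a log2 change of -1.33 ± 0.37 (adjusted p = 0.171).

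The remaining HOXB genes had smaller or more variable differences. HOXB4, a gene of blood stem cells, had 5.27 and 7.14 in control and 10.16 and 4.70 in embelin. Its groups overlapped and the log2 change of 1.22 ± 2.00 rests on embelin 1. The other HOXB4 probe, which was not kept, went the other way, with 5.49 and 4.59 in control and 3.78 and 4.24 in embelin. HOXB2 had 8.28, 7.93, 7.998 and 7.04 on control 1, control 2, embelin 1 and embelin 2 (log2 change -0.59), and HOXB7 had 5.97, 6.52, 4.94 and 6.11 (-0.72), and both had overlapping groups. HOXB9 had 11.27 and 11.23 in control and 11.71 and 11.60 in embelin, with a log2 change of 0.40 ± 0.16 (adjusted p = 0.288).

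In the HOXA cluster no gene passed the adjusted threshold in the limma fit over 17649 genes, and 1 was higher and 3 were lower at an unadjusted p under 0.05. HOXA13, a gene of the distal limb and the hindgut, had signals of 8.26 and 7.72 in control and 9.66 and 9.41 in embelin. Its embelin arrays were above both controls, and the log2 change was 1.54 ± 0.26 (adjusted p = 0.0799). HOXA13 was called in the limma fit that required probes well above background on all 4 arrays (adjusted p = 0.0394). The other HOXA13 probe, which was not kept, had 4.90 and 3.74 in control and 6.05 and 5.92 in embelin. HOXA2, which patterns the second pharyngeal arch, had 6.82 and 6.78 in control and 5.88 and 6.01 in embelin, with a log2 change of -0.86 ± 0.16 (adjusted p = 0.0956). Its probe was not well above background on embelin 1, and the change was -0.38 with normexp. HOXA5 had 8.10 and 7.86 in control and 6.89 and 7.49 in embelin, with a log2 change of -0.78 ± 0.27 (adjusted p = 0.239). HOXA10, which is needed in the uterus, had 6.75 and 6.26 in control and 5.74 and 5.84 in embelin, with a log2 change of -0.71 ± 0.23 (adjusted p = 0.217). On embelin 1 this probe too was not well above background, and the change was -0.32 with normexp.

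HOXA4 had 8.17 and 7.69 in control and 8.52 and 8.55 in embelin (log2 change 0.60, adjusted p = 0.269). HOXA7 had 9.88 and 9.04 in control and 9.11 and 8.03 in embelin, with overlapping groups (log2 change -0.89, adjusted p = 0.414). The 3 genes of paralogue group 13 with a kept probe differed in sign, with log2 changes of 1.54 in HOXA13, -2.07 in HOXB13 and -2.80 in HOXC13. In paralogue group 9 the changes were 0.40 in HOXB9, -0.38 in HOXC9 and 2.45 in HOXD9, and HOXA9 was not kept.

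**Figure D3:**
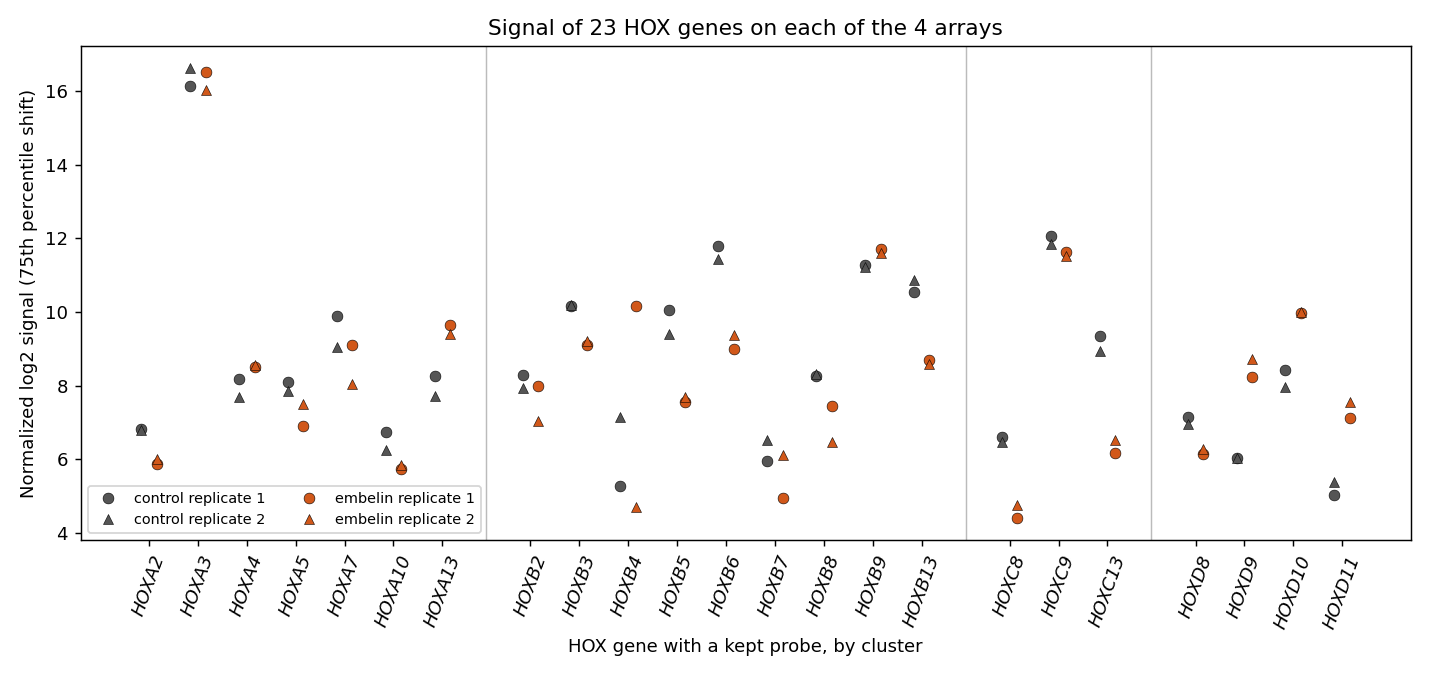
Normalized log2 signal (vertical axis) of the 23 HOX genes tested on each of the 4 arrays, with control in grey and embelin in orange, replicate 1 as circles and replicate 2 as triangles, and vertical lines between the clusters. Heights may be compared within a gene only; the groups stand apart in genes such as HOXC13 and HOXD9, whereas the embelin arrays of HOXB4 lie at 10.16 and 4.70.

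In 4 genes a second probe was kept, and the 2 probes of HOXA3 differed in their change. The brighter HOXA3 probe had 16.14 and 16.61 in control and 16.50 and 16.02 in embelin (log2 change -0.11 ± 0.28, adjusted p = 0.877), and the groups overlapped. The dimmer probe had 9.13 and 8.83 in control and 7.52 and 7.67 in embelin, a change of -1.38. The brighter probe is shown because of its composition, 81.7% G and C, a share reached by 0.0756% of all probes, with capitals for runs of at least 4 G or C bases.
HOXA3 brighter probe: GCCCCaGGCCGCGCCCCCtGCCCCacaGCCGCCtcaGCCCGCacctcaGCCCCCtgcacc
The dimmer probe had 35% G and C. The log2 changes of the 2 kept probes were -2.43 and -1.79 in HOXB6, -2.07 and -0.87 in HOXB13, and -0.71 and -0.27 in HOXA10, with the brighter probe first. In these 3 genes the sign was shared and the size was not.

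HOX genes resemble each other most in the homeodomain, and 3 of the 52 probes hold the codons of all the residues WFQN of its recognition helix, the part that contacts DNA. They are shown 5′ to 3′ with those codons in capitals.
HOXB6: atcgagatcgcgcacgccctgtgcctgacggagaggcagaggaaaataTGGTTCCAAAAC
HOXA10: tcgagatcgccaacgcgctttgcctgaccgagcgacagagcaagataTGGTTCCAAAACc
HOXC10: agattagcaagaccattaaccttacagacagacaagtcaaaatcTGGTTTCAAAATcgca
Aligned on these codons, the HOXA10 and HOXB6 probes were identical at 50 of 59 bases (84.7%), HOXA10 and HOXC10 at 37 of 57 (64.9%) and HOXB6 and HOXC10 at 34 of 56 (60.7%). These probes carry their deposited gene names. In the frame of WFQN the probe named HOXA10 codes for EIANALCL, where a kept HOXA10 probe codes for EISRSVHL. Whether the probe named HOXA10 comes from that gene was not tested, so these shares compare probes and not genes. The HOXB6 probe of this kind was the dimmer of its 2 kept probes, with 7.83 and 7.92 in control and 5.68 and 6.49 in embelin. The HOXA10 and HOXC10 probes of this kind were not kept. Whether such probes also bind the transcripts of other HOX genes was not tested.

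**Figure D4:**
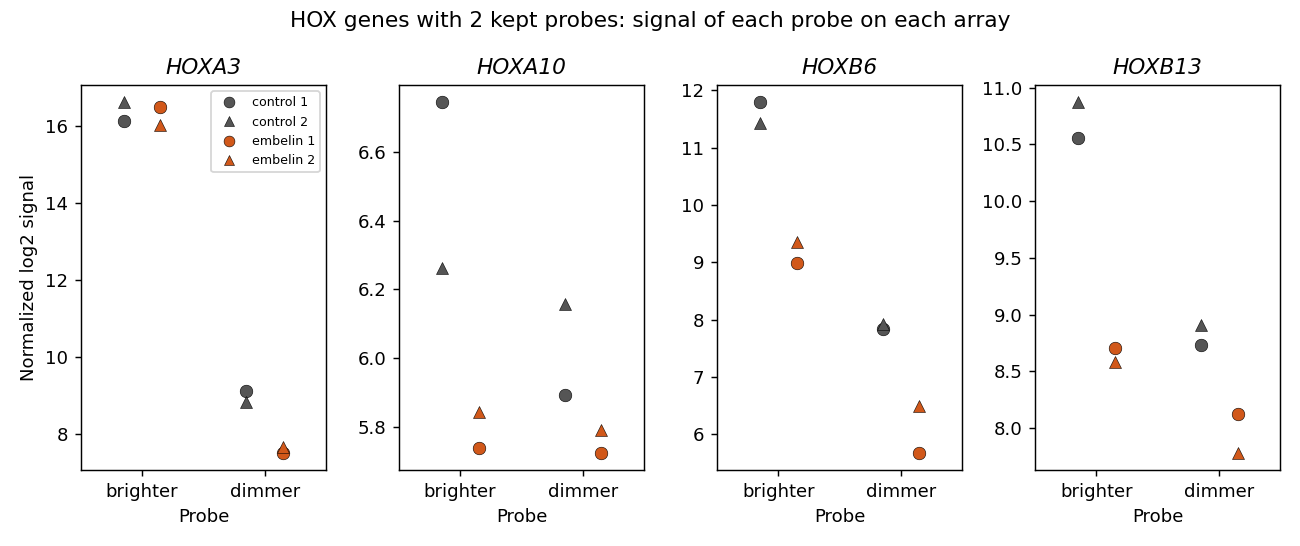
Normalized log2 signal (vertical axis, a scale of its own in each panel) of both kept probes of HOXA3, HOXA10, HOXB6 and HOXB13 on each array, with control in grey and embelin in orange, replicate 1 as circles and replicate 2 as triangles. The embelin arrays lie below the control arrays for every probe except the brighter HOXA3 probe.

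Genes that act with the HOX genes or control them had no adjusted call. Over all genes tested, 19.5% had an unadjusted limma p under 0.05, and the unadjusted counts of the lists below stand beside that share. The difference from it was not tested. Of the TALE partners, 8 of 9 had a kept probe and none was called, with 0 higher and 2 lower at an unadjusted limma p under 0.05 and a median log2 change of -0.45. MEIS2 had 8.45 and 7.70 in control and 6.95 and 6.90 in embelin (log2 change -1.15, adjusted p = 0.158), and PBX2 had 7.71 and 10.74 in control and 6.98 and 6.36 in embelin (-2.56, adjusted p = 0.308), with control arrays that differed widely. Of 28 Polycomb genes 27 were tested and none was called (5 higher and 5 lower at an unadjusted limma p under 0.05, median -0.07), among them RYBP, a subunit of the noncanonical complex (1.47, adjusted p = 0.0526), and CBX6 (-1.52, adjusted p = 0.0547). Of 15 trithorax and related genes 14 were tested and none was called (1 higher and 2 lower without adjustment, median -0.15), with -1.33 in SETD1B and 1.21 in DOT1L. The SETD1B probe was well above background on both control arrays but on 1 embelin array only. Of 18 genes of the retinoid pathway 15 were tested and none was called (2 higher and 4 lower without adjustment, median 0.03). RARA, the retinoic acid receptor alpha, had 10.49 and 11.03 in control and 12.42 and 12.99 in embelin (1.95, adjusted p = 0.0758), while its other kept probe changed by 0.41. CYP26C1, an enzyme that degrades retinoic acid, had 5.46 and 4.12 in control and 10.22 and 5.02 in embelin. Its groups overlapped, and 1 control array was not well above background.

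Other homeobox genes, which share the DNA-binding fold but lie outside the clusters, were 45 tested of 87, with 3 called, all lower (6.67%, against 1.81% of all genes), and with a median log2 change of -0.25. Among these genes 12 were at least 2-fold lower (26.7%, against 5.95%) and 4 at least 2-fold higher (8.89%, against 6.66%). The share at least 2-fold lower was 30.4% in the HOX genes, and the difference between these groups of genes was not tested. Of a list of ParaHox genes together with EVX1, EVX2 and MNX1, 3 of 9 were tested and none was called (0 higher and 1 lower without adjustment), with -0.58 in MNX1 and -0.17 in EVX1. The noncoding RNAs of the HOX clusters were represented by 1 of 18 on the array, HOXA11-AS, the antisense RNA of HOXA11. HOXA11-AS had 6.81 and 6.78 in control and 5.23 and 5.91 in embelin (log2 change -1.23, adjusted p = 0.127). Its probe was not well above background on embelin 1, and HOXA11 itself was not well above background on any array.

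The 2 pairs of arrays with like background (control 1 with embelin 2, and control 2 with embelin 1) give the change within a pair. For the 6 genes called, the log2 differences within the pairs were -2.43 and -2.43 in HOXB6, -1.97 and -2.17 in HOXB13, -1.83 and -2.04 in HOXC8, -2.81 and -2.79 in HOXC13, 2.68 and 2.22 in HOXD9, and 2.50 and 1.74 in HOXD11. These differences use the same values as the calls. In all 6 genes the groups do not overlap, so any pair of a control and an embelin array gives the same sign. The differences are thus a description, and the part of the array background was not tested. Among the 23 genes tested the sign differed between the pairs in HOXA7, HOXB2, HOXB4 and HOXB7.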

How the data were processed

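Gene expression was measured in A549 cells on 4 single-colour (Cy3) Agilent arrays of 1 slide, 2 control and 2 embelin. The deposited intensities come from Feature Extraction, whose version in the file headers is 10.7.3.1, and were already background-subtracted by the authors' scanner software but not normalized between arrays, and the 75th percentile of the arrays was 721, 601, 648 and 739. Outlier spots were left out, spots of a probe were averaged, arrays were scaled to equal 75th percentiles, and log2 was taken with values under 1 set to 1. Of 50238 probes, 26146 were kept, and the brightest kept probe stood for a gene. The difference between embelin and control was fitted by lmFit and eBayes of limma 3.58.1 (R 4.3.3), with Benjamini-Hochberg adjustment over 17649 genes. The fit was also run on simulated data whose spread was drawn from the fit itself. Those data held no difference in background between arrays, so that run does not bear on the calls reported here. Sequences were read with Python 3.11.15 and Biopython 1.88 from the probe sequences in the files and from the RefSeq promoter table. No genome was used here.

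HOX genes were called from the deposited gene names, of which 50 of 52 probes also matched by accession. HOX genes are named with array values for those kept, and of each related list the genes called or otherwise the 2 with the largest change. Some genes that this rule covers are left out by name here and remain in the counts. The members and lists were chosen with earlier results of these data known. Precision is limited by the small number of arrays.

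As alternatives the test was run with each array left out, with a block for the replicate number or for the array background, as Student's test of the study's methods, with eBayes set to trend and robust, with probes averaged or counted singly, with no filter or with all 4 arrays required, on the table of values the authors deposited, after quantile normalization, and after normexp (offset 50).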

Additional observations from a re-analysis of the deposited data

How the results depend on the processing

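The HOX genes called, 2 higher and 4 lower of 320 genes called in all, and the 3 called in related lists, depended on the setting. All these counts were 0 when any array was left out (range 0 to 0), with the methods' t-test, without the filter on dim probes, with the replicate block and with the array background block. At an unadjusted p under 0.05, those of these settings that used all 4 arrays gave 4 to 5 HOX genes higher and 8 to 12 lower. The counts were 4 and 12 with the replicate block and 5 and 8 with the t-test. Without the filter they are counts among 39 HOX genes. The share over all genes at this threshold was 19.5% in the fit over 17649 genes. It is not given for these settings, so the counts are a description only. HOX genes called higher and lower were 4 and 5 with normexp, 4 and 5 with trend and robust, 1 and 4 with quantile normalization, 0 and 1 with the deposited table, 1 and 2 with the mean over probes, 1 and 3 with each probe on its own, and 2 and 5 with the filter on all 4 arrays. Genes called over all were 723 with normexp, 159 with the deposited table, 764 with the filter on all 4 arrays and 1061 with trend and robust. Genes called in related lists were 8, 1, 12 and 11 in these settings, and 1 with quantile normalization, with the mean over probes and with each probe on its own. The blocks and the fits that leave out an array have fewer degrees of freedom, and the cause of these differences was not tested.

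The number of HOX genes tested was 39 without the filter. The medians of HOXA, HOXC and HOXD were -0.11, -0.066 and 0.11 without the filter and -0.32, -0.70 and 1.38 with normexp. With the filter on all 4 arrays they were -0.11 for HOXA and -1.59 for HOXC, 3 HOX genes were at least 2-fold higher and 7 were lower at an unadjusted p under 0.05. With normexp 4 were at least 2-fold lower. With an array left out the HOXA median ranged from -0.87 to -0.35. The log2 change of HOXA3 turned to 0.13 without control 2 (0.125) and without embelin 2 (0.128), and that of HOXB4 turned to -1.504 without embelin 1, against 3.95 without embelin 2. The 2 replicate numbers do not pair the samples by the labels, and the deviations of same-numbered arrays correlated at 0.18 over 17298 genes. Of the settings other than leaving out an array, HOXC13 was called in 7 of 11, HOXB6 and HOXB13 in 5 of 11, HOXD9 in 5 of 10, and HOXC8 and HOXD11 in 2 of 10. HOXA13, HOXB3, HOXB5 and HOXD10, which were not called in the fit over 17649 genes, were each called in 3 of 11. That is more often than HOXC8 and HOXD11, which were called in that fit.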
